A study of Mus musculus with 39 samples.

Results

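The interferon response genes are 43 named genes that cells switch on when they sense interferon, chosen by name with a mean normalised count of at least 10 over the 16 RNA libraries. All 43 were found among the 24116 genes of the expression table, and all 43 met that minimum, so each was tested. RNA came from interscapular brown fat, a heat-producing depot, of male mice on the C57BL/6J background in which Bcl6, the gene of a transcriptional repressor, is flanked by Cre recombination sites (BCL6-floxed). The 4 groups of 4 libraries each were UCP1Cre mice at 30 °C, floxed mice without Cre at 30 °C, UCP1Cre mice at 22 °C and floxed mice without Cre at 22 °C. Every animal, controls included, carried the floxed Bcl6 allele. Cre was driven by the promoter of a brown adipocyte gene, so recombination is directed at brown adipocytes and not at the immune, vascular and stromal cells of the depot. Libraries from UCP1Cre mice are called Cre-labelled and those without Cre are called controls. Neither age nor time at each temperature is given in the sources used here. Whether each library is a different animal is not labelled, so p-values describe the spread among these samples, which may be technical. A list of 3022 BCL6 peaks came from BCL6 chromatin immunoprecipitation (ChIP) in brown fat of floxed mice without Cre at 30 °C.

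Type I interferons act through the receptor pair IFNAR1 and IFNAR2 and the kinases JAK1 and TYK2, which activate a complex with STAT2 and IRF9 that binds interferon-stimulated response elements (ISRE) in promoters. Interferon gamma acts through IFNGR1 and IFNGR2, and its signal reaches gamma-activated sites (GAS) in promoters. BCL6 recognises a sequence that resembles the GAS element and recruits corepressors. In fat, interferon response genes can be expressed by adipocytes, macrophages and endothelial cells alike, so a tissue level does not say which cells carry the RNA.

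Of the 3022 BCL6 peaks, 8 had one of these genes as their nearest gene in the authors' annotation, and they belonged to 7 genes: Gbp7, Gbp3, Igtp, Tap2, Ifit2, Usp18 and Rsad2. RefSeq promoter windows overlapped the peaks of 3 of them. The stretches below are from the RefSeq promoter table (GRCm38.p6, the build named mm10), 5′ to 3′ on the coding strand, and are shown because they join a deposited BCL6 peak to motifs in a member's promoter. Gbp7 is given over the whole of its peak at chr3:142530137-142530317, which ends just before the gene's start. Gbp3 is given over the upstream part of its peak, chr3:142559953-142560015. Igtp is given over chr11:58199306-58199555, the 250 bases before its start, of which the 61 at the left lie in its peak. Capitals mark ISRE cores (GAAA, any 2 bases, GAAA, on either strand) and BCL6-type motifs (TTCCNNGAA or its reverse complement TTCNNGGAA).

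Gbp7: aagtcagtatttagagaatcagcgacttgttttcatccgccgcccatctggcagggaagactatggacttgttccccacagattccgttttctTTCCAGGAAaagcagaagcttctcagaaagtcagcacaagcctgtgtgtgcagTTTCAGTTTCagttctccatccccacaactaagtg

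Gbp3: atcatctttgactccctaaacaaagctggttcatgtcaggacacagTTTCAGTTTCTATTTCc

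Igtp: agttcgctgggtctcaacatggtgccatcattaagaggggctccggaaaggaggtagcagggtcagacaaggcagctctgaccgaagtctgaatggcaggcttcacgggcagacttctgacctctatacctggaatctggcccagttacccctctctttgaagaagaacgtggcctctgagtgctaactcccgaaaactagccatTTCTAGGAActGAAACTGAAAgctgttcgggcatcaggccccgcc

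The Gbp7 peak covered a BCL6-type motif and, nearer to the gene, an ISRE core that began 53 bases before the start. The printed upstream part of the Gbp3 peak held overlapping ISRE cores and no BCL6-type motif. Its cores began 45 and 39 bases before the start on which the RefSeq promoter window is set, which lies downstream of the gene's first annotated base, where the printed stretch ends. In Igtp both motifs lay side by side close to the start, the ISRE core 34 bases before it, and both lay outside the peak. A match is a description of the letters and not evidence of binding. Deposited peak scores ran from 4.11 to 170 with a median of 5.18 over the 3022 peaks. Gbp7 had the highest score among the members, 19.5, rank 120, at chr3:142530137-142530317. A Tap2 peak at chr17:34218812-34218992 scored 13.6 (rank 222) and lay 14423 bases downstream of its start, and another at chr17:34204610-34204790, in intron 1 of Tap2, scored 4.65. Rsad2 had an intergenic peak 3915 bases upstream that scored 9.83 (chr12:26460277-26460457), and Ifit2 an intergenic peak 2132 bases upstream that scored 4.11 (chr19:34548472-34548652). The Gbp3 promoter peak, with its centre 1 base from the start in the authors' annotation, scored 7.33 (rank 612). The Igtp promoter peak scored 4.83 (chr11:58199186-58199366), and the Usp18 peak, in intron 1, scored 4.47 (chr6:121250403-121250583). Of the 43 members 16.3% were named by a peak, against 14.2% of the 13176 genes tested. Within 1 kb of the start the shares were 9.30% (4 members) and 5.21%.

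ISRE cores were common in the members' promoters. RefSeq windows from 250 bases before to 50 after the start were matched for 31 of the 43 members, in 36 windows, and 19 windows (52.8%) held an ISRE core, against 3.44% of all 32851 windows. The GAS core (TTCNNNGAA, which reads the same on both strands and of which the BCL6-type motif is a special case) was in 25.0% of member windows and 8.30% of all windows, and the BCL6-type motif in 19.4% and 4.81%. Cores from 8 further members that passed the test in at least 1 genotype comparison are shown in stretches of 30 bases with ISRE cores in capitals; those of Oas1a, Bst2 and Irgm1 hold 2 overlapping cores. Ifit1 is at chr19:34640794-34640823, Ifit3 at chr19:34583397-34583426, Ifit3b at chr19:34607793-34607822 and Gbp2 at chr3:142620594-142620623, all on the plus strand. Oas1a is at chr5:120907520-120907549, Bst2 at chr8:71537577-71537606, Trim30a at chr7:104465210-104465239 and Irgm1 at chr11:48871425-48871454, all on the minus strand.

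Ifit1: ccagtctcagTTTCAGTTTCtcactgctga

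Ifit3: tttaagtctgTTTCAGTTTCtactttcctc

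Ifit3b: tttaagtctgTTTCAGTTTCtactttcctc

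Gbp2: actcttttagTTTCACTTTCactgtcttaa

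Oas1a: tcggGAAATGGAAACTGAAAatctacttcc

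Bst2: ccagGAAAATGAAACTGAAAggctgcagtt

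Trim30a: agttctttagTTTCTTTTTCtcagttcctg

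Irgm1: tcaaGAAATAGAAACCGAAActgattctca

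The 30 bases of Ifit3 and Ifit3b were identical. They are promoter sequence, and transcript sequences were not compared. Reads of 75 cycles can be shared between close copies of a gene, so values of related genes may be partly exchanged by the estimation of counts. That caution covers the pair Ifit3 and Ifit3b, the Oas1 family, the guanylate binding proteins and the immunity-related GTPases.

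Normalised counts summed to between 8867615 and 9479495 in Cre-labelled and between 9387313 and 9975035 in control libraries at 30 °C, and to between 10122739 and 12867466 and between 12064137 and 13516936 at 22 °C. Raw depth is unknown. Bcl6 RNA went against the label: it was 3269, 4451, 5159 and 4985 in Cre-labelled against 2340.5, 2266, 1763 and 1020.1 in control libraries at 30 °C, and 3263, 2671, 3362 and 3927 in Cre-labelled against 916, 799, 764 and 1838 in control libraries at 22 °C. The Cre-labelled libraries were higher by 1.32 ± 0.27 (SE; limma adjusted p = 0.00438) at 30 °C on the log2 scale and by 1.70 ± 0.27 (SE; limma adjusted p = 8.25e-04) at 22 °C. A gene-level value also counts exons outside the floxed part, so it does not measure how much of the gene was deleted. All 13 brown adipocyte markers were expressed, and none of the 18 macrophage markers was at 0 in all libraries of a group.

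**Figure D1:**
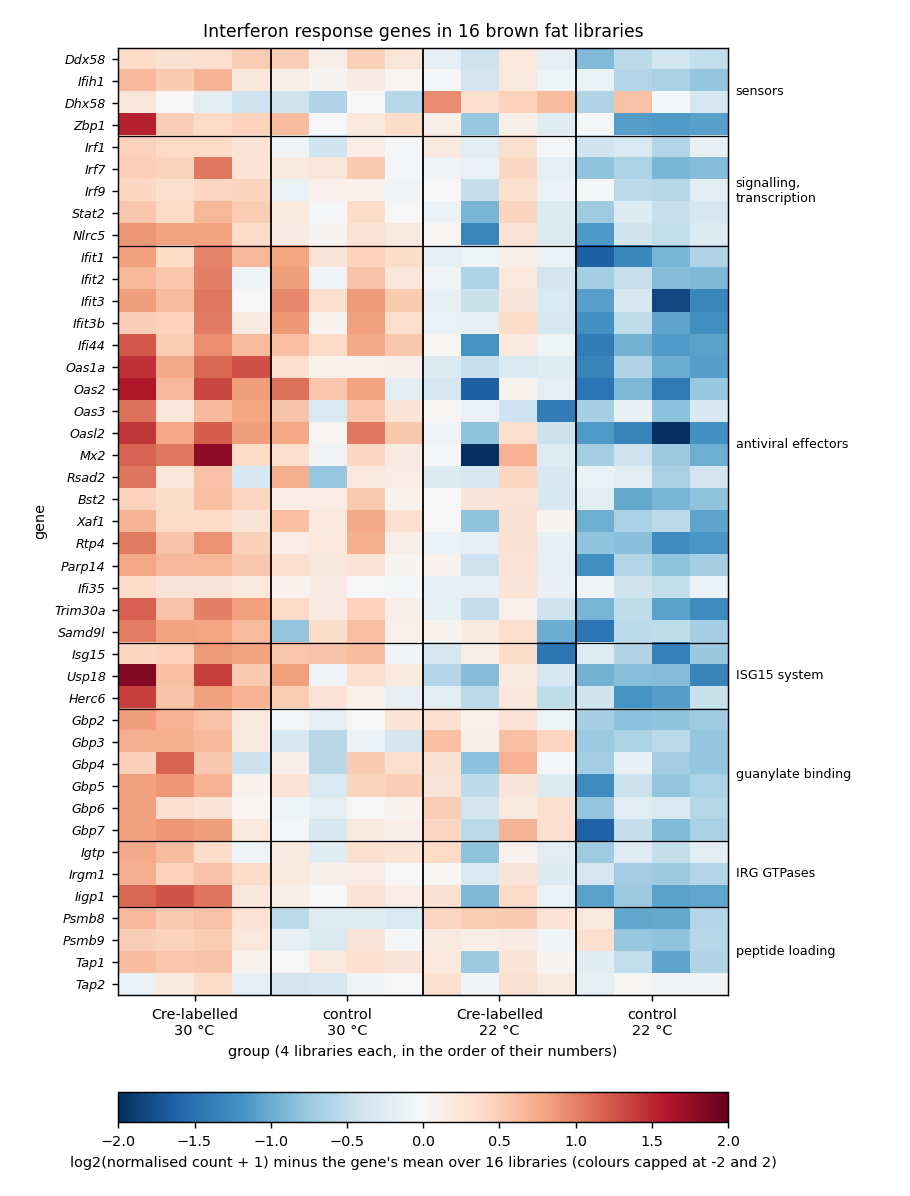
Heat map of the 43 interferon response genes (rows, ordered by role) in 16 libraries (columns, 4 per group); colour is log2(normalised count + 1) minus the gene's mean over all libraries. Cre-labelled libraries at 30 °C are above the mean in most rows and control libraries at 22 °C below it, while Dhx58 has its highest mean in Cre-labelled libraries at 22 °C.

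The interferon response genes lay higher in Cre-labelled than in control brown fat at both temperatures, and higher at 30 °C than at 22 °C in both genotypes. At 30 °C, 8 of the 43 members (18.6%) were past the threshold as higher in Cre-labelled libraries and 0 as lower, against 5.65% higher and 6.85% lower among all 13176 genes tested (limma, Benjamini-Hochberg adjusted p under 0.05). Another 10 had an unadjusted p under 0.05, which makes 18 in all. At 22 °C, 20 members (46.5%) were higher and 0 lower in Cre-labelled libraries, against 5.51% and 4.69% of all genes, and 29 had an unadjusted p under 0.05. The share of all genes with an unadjusted p under 0.05 was not computed, so the counts of 18 and 29 have no background beside them. The median log2 difference of the members was 0.42 at 30 °C and 0.63 at 22 °C, and that of all genes tested was 0.01 and −0.0042. The difference was positive for 41 members at 30 °C and for 43 at 22 °C. All 8 members called at 30 °C (Irf1, Oas1a, Trim30a, Gbp2, Gbp3, Irgm1, Iigp1 and Psmb8) were among the 20 called at 22 °C, of which they make 40.0%. The genotype comparisons share no libraries, but they share the estimate of each gene's spread, so the lists are not independent. The overlap over all genes was not computed. In whole tissue, more cells of a type and more RNA per cell cannot be told apart.

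Both genotype counts depended on single libraries. The count at 30 °C was 5 without control 30 °C library 1, 4 without control 30 °C library 2 or library 4, and 4 without Cre-labelled 30 °C library 1 or library 3. It was 13 without control 22 °C library 1 and 14 without Cre-labelled 22 °C library 2, which enter this comparison only through the shared estimate of the spread, and 17 without both of them. The count at 22 °C was 12 without control 22 °C library 3, 13 without control 22 °C library 4, 12 without Cre-labelled 22 °C library 1 and 10 without Cre-labelled 22 °C library 3. With only the groups compared in the fit, the counts were 17 at 30 °C and 8 at 22 °C. No member was called lower under any of these.

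**Figure D2:**
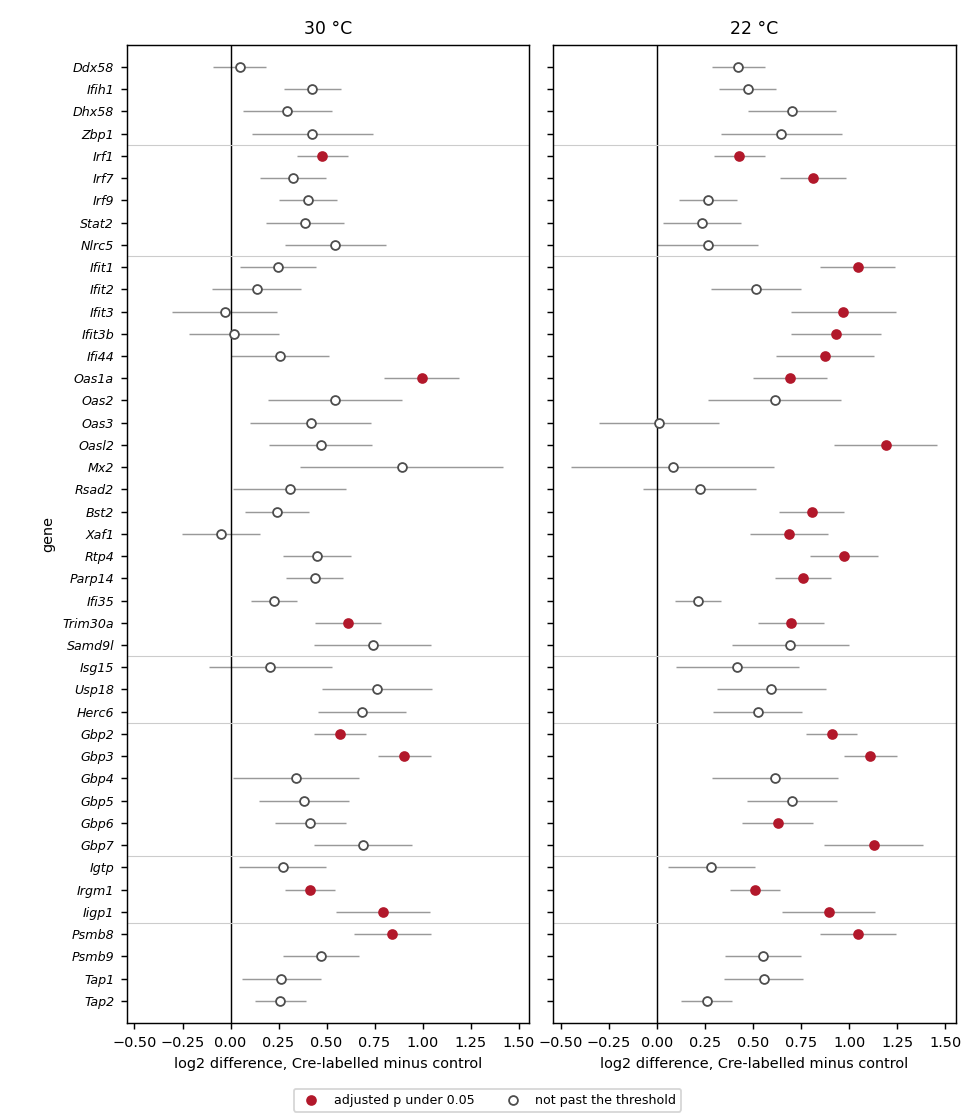
Log2 difference between Cre-labelled and control libraries for each of the 43 genes (rows) at 30 °C (left) and 22 °C (right), with standard errors as bars (n = 4 libraries per group). Filled points passed an adjusted p of 0.05; 8 are filled at 30 °C and 20 at 22 °C, all to the right of 0.

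More members differed with temperature than with genotype. In controls, 30 members (69.8%) were higher and 0 lower at 30 °C than at 22 °C, against 22.9% and 22.7% of all genes. In Cre-labelled libraries, 28 members (65.1%) were higher and 1, Dhx58, was lower at 30 °C, against 15.0% and 17.7% of all genes. Median log2 differences of the members were 0.90 in controls and 0.61 in Cre-labelled libraries, and those of all genes were 0.04 and 0.02. Without Cre-labelled 22 °C library 4 the count higher in Cre-labelled libraries was 18. The comparison at 30 °C between genotypes and that between temperatures in controls share the control libraries at 30 °C, so their values for a gene are linked.

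**Figure D3:**
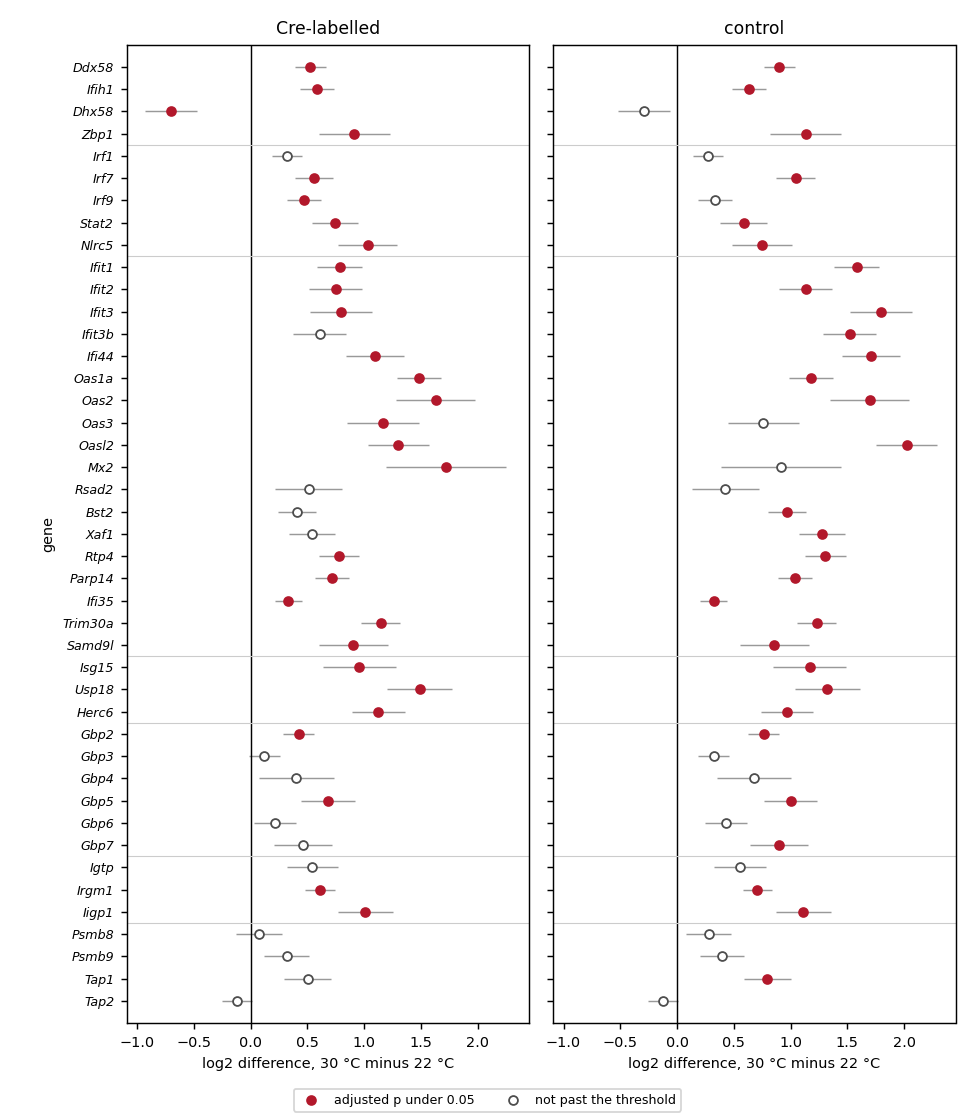
Log2 difference between 30 °C and 22 °C for each of the 43 genes (rows) in Cre-labelled (left) and control (right) libraries, with standard errors as bars (n = 4 libraries per group). Filled points passed an adjusted p of 0.05; Dhx58 is the filled point left of 0 in Cre-labelled libraries, a call that was lost when each library was scaled to the same total.

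Scaling each library to the same total, in place of the authors' normalisation, moved the median of all genes to 0.17 for the genotype comparison at 22 °C, 0.43 for temperature in controls and 0.31 for temperature in Cre-labelled libraries. Relative to that shift the members' medians were 0.63, 0.87 and 0.59 log2 higher, and 0.41 higher for genotype at 30 °C. Among all genes called, the higher ones made up 45.2% for genotype at 30 °C, 54.0% for genotype at 22 °C, 50.2% for temperature in controls and 45.9% for temperature in Cre-labelled libraries as deposited, against 55.6%, 81.2%, 85% and 79.6% with equal totals. For the interaction the median of all genes moved to −0.11 and the higher share of the called genes was 39.7% as deposited and 16.3% with equal totals. The members' counts in the first 4 comparisons with equal totals were 6, 25, 40 and 35 higher and 0 lower in each.

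The sensors of viral nucleic acid showed a temperature difference and no called genotype difference. Ddx58 encodes RIG-I and Ifih1 encodes MDA5, which detect viral RNA, and Zbp1 encodes a sensor of Z-form nucleic acid that can trigger necroptosis. Ddx58 was 718, 553, 707 and 605 in control libraries at 30 °C and 277, 354, 390.2 and 364 at 22 °C. All 4 values at 30 °C lay above all 4 at 22 °C, a difference of 0.90 ± 0.14 (SE; limma adjusted p = 9.17e-05). In Cre-labelled libraries Ddx58 rose by 0.53 ± 0.14 (SE; limma adjusted p = 0.00751) at 30 °C. Ifih1 rose by 0.63 ± 0.15 (SE; limma adjusted p = 0.00292) with temperature in controls and by 0.59 ± 0.15 (SE; limma adjusted p = 0.00657) in Cre-labelled libraries, and Zbp1 by 1.13 ± 0.31 (SE; limma adjusted p = 0.00773) and 0.91 ± 0.31 (SE; limma adjusted p = 0.0338). Neither Zbp1 call held with quantile normalisation (0.58, adjusted p = 0.137, in controls and 0.56, adjusted p = 0.172, in Cre-labelled libraries). Genotype differences of these 3 ran from 0.05 (Ddx58) to 0.43 at 30 °C and from 0.42 to 0.65 (Zbp1) at 22 °C, none past the threshold; with equal totals Ddx58 and Ifih1 passed at 22 °C.

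Dhx58, which encodes LGP2, a regulator of RIG-I and MDA5, was the 1 member called lower at 30 °C. It was 131, 109.7, 94.9 and 82.4 in Cre-labelled libraries at 30 °C and 213, 142, 153 and 172 at 22 °C. The groups did not overlap, and the difference was −0.70 ± 0.23 (SE; limma adjusted p = 0.0272). That call was lost without Cre-labelled 22 °C library 1 (adjusted p = 0.0854) or library 4 (0.0568), without Cre-labelled 30 °C library 3 (0.0632) or library 4 (0.0835), and with equal totals (−0.41, adjusted p = 0.198). In controls Dhx58 was 83.0, 72.3, 111 and 73.8 at 30 °C and 72.5, 165, 108 and 85.9 at 22 °C. These groups overlapped, with a difference of −0.29 that turned to 0.10 with equal totals. It was called lower with quantile normalisation (−0.56, adjusted p = 0.0465). With the Cre label Dhx58 differed by 0.70 at 22 °C, in overlapping groups, the largest genotype difference of the 4 sensors there. Dhx58 did not pass with genotype at either temperature.

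Among the transcription factors and coactivators, Irf1, an early activator of interferon gamma targets, rose with the Cre label at both temperatures. Irf1 was 1048, 1012, 1004 and 935 in Cre-labelled libraries and 725, 579.9, 849 and 740.4 in control libraries at 30 °C. These groups did not overlap, with a difference of 0.48 ± 0.13 (SE; limma adjusted p = 0.0252), which missed the threshold without control 30 °C library 1, 2 or 4 or Cre-labelled 30 °C library 1 or 3 (adjusted p from 0.054 to 0.0816). At 22 °C Irf1 was 876, 661, 953 and 742 in Cre-labelled against 582, 615, 507 and 686 in control libraries, overlapping groups that differed by 0.43 ± 0.13 (SE; limma adjusted p = 0.0493), which did not pass with quantile normalisation (0.44, adjusted p = 0.071). The temperature differences of Irf1 were 0.27 in controls (adjusted p = 0.105) and 0.32 in Cre-labelled libraries (adjusted p = 0.0741). In controls the difference passed without control 30 °C library 2 (adjusted p = 0.0322).

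Irf7, the factor that amplifies type I interferon production, had its clearest genotype difference at 22 °C. It was 244, 233, 341 and 226 in Cre-labelled and 146, 165, 136 and 139.9 in control libraries at 22 °C. The groups did not overlap and differed by 0.81 ± 0.17 (SE; limma adjusted p = 0.00601). At 30 °C Irf7 was 358, 350.4, 536 and 309.7 in Cre-labelled against 295, 305, 371 and 253 in control libraries, overlapping groups with a difference of 0.32 (adjusted p = 0.251). Irf7 rose with temperature by 1.05 ± 0.17 (SE; limma adjusted p = 1.64e-04) in controls and by 0.56 ± 0.17 (SE; limma adjusted p = 0.0188) in Cre-labelled libraries. Irf9 and Stat2, parts of the ISRE-binding complex, and Nlrc5, the activator of MHC class I genes, had genotype differences from 0.39 to 0.55 at 30 °C and 0.23 to 0.27 at 22 °C, none past the threshold. With temperature in Cre-labelled libraries all 3 rose, Irf9 by 0.47, Stat2 by 0.74 and Nlrc5 by 1.03. In controls Stat2 (0.59) and Nlrc5 (0.75) rose, and Irf9 differed by 0.33 (adjusted p = 0.0791).

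The antiviral effectors are 18 genes. Of them, 2 (11.1%) were higher with the Cre label at 30 °C and 11 (61.1%) at 22 °C, against 5.65% and 5.51% of all genes. With temperature, 15 (83.3%) were higher in controls and 14 (77.8%) in Cre-labelled libraries, against 22.9% and 15.0%. In these comparisons 0 effectors were lower, against 6.85%, 4.69%, 22.7% and 17.7% of all genes. The effectors' median log2 differences were 0.36, 0.70, 1.21 and 0.79 in the same order.

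The Ifit genes, whose proteins bind viral RNA and block its translation, rose with the Cre label at 22 °C (Ifit1, Ifit3 and Ifit3b) and passed for none of the 4 at 30 °C. Ifit1 was 111, 117, 137 and 114 in Cre-labelled and 39.9, 50.6, 65.1 and 82.4 in control libraries at 22 °C. No Cre-labelled library was as low as any control, and the difference was 1.04 ± 0.20 (SE; limma adjusted p = 0.0029). At 30 °C Ifit1 was 223, 165, 252 and 197 in Cre-labelled against 218, 149.6, 173 and 162 in control libraries, overlapping groups with a difference of 0.25 ± 0.20. Ifit3 differed between genotypes by 0.97 ± 0.27 (SE; limma adjusted p = 0.0327) at 22 °C and by −0.03 ± 0.27 at 30 °C, and Ifit3b, its close copy, by 0.93 ± 0.23 (SE; limma adjusted p = 0.0185) and 0.02 ± 0.23. The Ifit3b call at 22 °C was lost with quantile normalisation (0.70, adjusted p = 0.0677), without Cre-labelled 22 °C library 3 (0.0712) and with only the groups compared (0.0541), and that of Ifit3 with quantile normalisation (0.84, 0.0613). The sign of these small differences of Ifit3 and Ifit3b at 30 °C turned with the scaling. Ifit2 differed by 0.52 at 22 °C (adjusted p = 0.176) and 0.14 at 30 °C (adjusted p = 0.775).

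With temperature all 4 Ifit genes rose in controls. Ifit1 had the smallest adjusted p among the 43 members there, a difference of 1.58 ± 0.20 (SE; limma adjusted p = 1.58e-05), from the values given above. Ifit3 was 444, 286, 412 and 327 in control libraries at 30 °C and 107, 182, 63.6 and 91.6 at 22 °C. The groups did not overlap, and Ifit3 was 3.47-fold higher at 30 °C on this scale, or 1.80 ± 0.27 (SE; limma adjusted p = 9.12e-05) in log2. Ifit3b rose by 1.52 and Ifit2 by 1.13 in controls. In Cre-labelled libraries the rises were 0.78 for Ifit1, 0.75 for Ifit2 and 0.79 for Ifit3, and Ifit3b differed by 0.61 (adjusted p = 0.0562).

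The oligoadenylate synthetases make the messenger that activates RNase L, and Oas1a passed in the genotype comparison at both temperatures. Oas1a was 116, 71.2, 93.3 and 103 in Cre-labelled and 53.1, 44.7, 44.3 and 45.9 in control libraries at 30 °C. Every Cre-labelled value was above every control value, a 1.99-fold difference, or 0.99 ± 0.19 (SE; limma adjusted p = 0.00272) in log2. At 22 °C it was 34.4, 29.9, 33.6 and 35.2 in Cre-labelled against 15.8, 27, 20.3 and 18.9 in control libraries, again without overlap, a difference of 0.69 ± 0.19 (SE; limma adjusted p = 0.0301), which did not pass with quantile normalisation (0.43, adjusted p = 0.192). Oas1a also rose with temperature by 1.18 ± 0.19 (SE; limma adjusted p = 1.64e-04) in controls and by 1.48 ± 0.19 (SE; limma adjusted p = 4.45e-05) in Cre-labelled libraries, the smallest adjusted p among the members in the last comparison. The 4 groups thus stood in the order Cre-labelled 30 °C, control 30 °C, Cre-labelled 22 °C, control 22 °C with no overlap between neighbours.

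Oasl2, a related protein, was 144, 85.2, 192 and 111 in Cre-labelled and 67.6, 59.2, 35.7 and 64.5 in control libraries at 22 °C. The groups did not overlap, and its difference of 1.19 ± 0.27 (SE; limma adjusted p = 0.00922) was the largest of the 43 at 22 °C. At 30 °C the values were 407, 256, 350.0 and 268 in Cre-labelled against 256, 152, 313 and 218 in control libraries, overlapping groups with a difference of 0.47 (adjusted p = 0.294). Its rise with temperature in controls, 2.02 ± 0.27 (SE; limma adjusted p = 2.71e-05) or 4.07-fold, was the largest of the 43, and in Cre-labelled libraries it rose by 1.30. Oas2 was 268, 138, 222 and 157 in Cre-labelled libraries at 30 °C and 69.2, 27.6, 92.0 and 76.1 at 22 °C, a rise of 1.63 ± 0.35 (SE; limma adjusted p = 0.0019), and in controls it rose by 1.70. Oas2 differed by genotype by 0.54 and 0.61 with adjusted p of 0.355 and 0.286 at 30 and 22 °C. Oas3 was the member with the smallest genotype difference at 22 °C, 0.01 ± 0.31, whose sign turned under quantile normalisation, and it rose with temperature in Cre-labelled libraries by 1.17.

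Mx2, an antiviral GTPase related to dynamins, varied widely between libraries. It was 75.4, 68.5, 115 and 43.1 in Cre-labelled and 41.7, 31.1, 43.6 and 36.7 in control libraries at 30 °C, and 31.8, 3.55, 53.5 and 27.1 in Cre-labelled against 19.9, 24.2, 19.2 and 16.1 in control libraries at 22 °C. Library 2 of the Cre-labelled libraries at 22 °C was far below the other libraries. The genotype differences of 0.89 ± 0.53 at 30 °C (adjusted p = 0.312) and 0.08 ± 0.53 at 22 °C (adjusted p = 0.943) did not pass. The difference at 30 °C passed without that library, with an adjusted p of 0.0391. Its rise with temperature in Cre-labelled libraries was 1.73 ± 0.53 (SE; limma adjusted p = 0.0189). That rise missed the threshold without Cre-labelled 30 °C library 3 (adjusted p = 0.0603) and with only the groups compared (0.0699). With 1 library left out it ran from 0.97 to 2.16, lowest without Cre-labelled 22 °C library 2.

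Trim30a, a TRIM family protein that restrains NF-kappa-B signalling in mouse cells, rose in all 4 comparisons. It was 580.4, 379.8, 512 and 450.2 in Cre-labelled and 330.1, 285, 352 and 279.6 in control libraries at 30 °C, and 225, 182, 271 and 189 in Cre-labelled against 133, 177, 120.5 and 106 in control libraries at 22 °C. Neither temperature showed overlap between the genotypes, with differences of 0.61 ± 0.17 (SE; limma adjusted p = 0.0266) and 0.70 ± 0.17 (SE; limma adjusted p = 0.0166). The call at 30 °C was lost without control 30 °C library 2 or 4 or Cre-labelled 30 °C library 1 or 3 (adjusted p from 0.0667 to 0.0972). The call at 22 °C was lost without control 22 °C library 3 or 4 or Cre-labelled 22 °C library 3 (0.0507 to 0.0652). It was also lost with only the groups compared (0.0741). With temperature Trim30a rose by 1.23 ± 0.17 (SE; limma adjusted p = 4.27e-05) in controls and by 1.15 ± 0.17 (SE; limma adjusted p = 1.35e-04) in Cre-labelled libraries.

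Rtp4, Parp14 and Bst2 rose with the Cre label at 22 °C. Rtp4, an inhibitor of flavivirus replication, was 109.8, 107, 147 and 107 in Cre-labelled and 68.0, 66.7, 49.8 and 52.8 in control libraries, without overlap, a difference of 0.98 ± 0.18 (SE; limma adjusted p = 0.00217). Parp14, a mono-ADP-ribosyltransferase, was 852, 613, 982 and 728 in Cre-labelled against 349, 543, 466 and 513 in control libraries, also without overlap, a difference of 0.76 ± 0.15 (SE; limma adjusted p = 0.00333). For Bst2, which encodes tetherin, a membrane protein that holds budding virions at the cell surface, the values were 509, 603, 616 and 407 in Cre-labelled against 434, 248, 265 and 288 in control libraries. The lowest Cre-labelled library lay below the highest control library, and the difference was 0.80 ± 0.17 (SE; limma adjusted p = 0.00557), which missed the threshold with only the groups compared (adjusted p = 0.0506). At 30 °C the 3 genes differed by 0.45, 0.44 and 0.24 with adjusted p of 0.112, 0.0606 and 0.399. At 30 °C Rtp4 was higher than at 22 °C by 1.31, Parp14 by 1.04 and Bst2 by 0.97 in controls, and Rtp4 by 0.78 and Parp14 by 0.72 in Cre-labelled libraries.

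Ifi44, a cytoplasmic antiviral protein, and Xaf1, an antagonist of apoptosis inhibitors, rose with the Cre label at 22 °C by 0.87 ± 0.26 (SE; limma adjusted p = 0.0387) and 0.69 ± 0.20 (SE; limma adjusted p = 0.0404). With quantile normalisation neither passed (0.63, adjusted p = 0.096, for Ifi44 and 0.61, adjusted p = 0.0729, for Xaf1). At 30 °C Ifi44 differed by 0.26 (adjusted p = 0.589), and Xaf1 by −0.05 ± 0.20, the lowest of the 43, which turned to 0.02 with equal totals. Xaf1 was 371, 283, 415 and 309 in control libraries at 30 °C and 124, 155, 170.4 and 117 at 22 °C, without overlap, a rise of 1.28 ± 0.20 (SE; limma adjusted p = 1.31e-04). Ifi44 rose by 1.71 ± 0.26 (SE; limma adjusted p = 7.63e-05) in controls and by 1.09 ± 0.26 (SE; limma adjusted p = 0.00366) in Cre-labelled libraries. Samd9l, which restricts translation in infected cells, rose with temperature by 0.86 and 0.90 in control and Cre-labelled libraries and did not pass in the genotype comparisons (0.74 and 0.69). Ifi35 had the smallest rises among those called with temperature, 0.32 in controls and 0.33 in Cre-labelled libraries, and a genotype difference of 0.21 at 22 °C (adjusted p = 0.287). Rsad2, which encodes the antiviral enzyme viperin, passed in none of the comparisons as deposited, with genotype differences of 0.31 at 30 °C and 0.22 at 22 °C and temperature differences of 0.42 in controls and 0.51 in Cre-labelled libraries.

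The ISG15 system attaches a ubiquitin-like protein to others; in mouse, Herc6 is the ligase and Usp18 removes the tag and also blocks the type I receptor. All 3 genes rose with temperature in both genotypes and none passed the genotype test. Usp18 was 327, 139, 241 and 131 in Cre-labelled libraries at 30 °C and 60.7, 49.4, 105 and 71.1 at 22 °C, without overlap, a rise of 1.49 ± 0.29 (SE; limma adjusted p = 8.95e-04). In controls it rose by 1.32 ± 0.29 (SE; limma adjusted p = 0.00149). Herc6 was 348, 199, 238 and 217 in Cre-labelled libraries at 30 °C and 115, 91.7, 157 and 93.6 at 22 °C, without overlap, a rise of 1.13 ± 0.23 (SE; limma adjusted p = 0.00148). Isg15 rose by 1.17 in controls and 0.96 in Cre-labelled libraries, calls that did not hold with quantile normalisation (adjusted p = 0.0612 and 0.0732). The genotype differences at 30 °C were 0.76 for Usp18 (adjusted p = 0.0941), 0.68 for Herc6 (0.0626) and 0.21 for Isg15 (0.749).

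The guanylate binding proteins, large GTPases induced by interferon gamma that attack the vacuoles of intracellular pathogens, included the most significant genotype differences of all members. Gbp3 was 1118, 1104, 1058 and 767 in Cre-labelled and 543, 459.9, 621 and 524 in control libraries at 30 °C. Every Cre-labelled library was above every control, with library 4 the lowest of its group, and the difference was 1.87-fold, or 0.90 ± 0.14 (SE; limma adjusted p = 3.56e-04). At 22 °C Gbp3 was 1031, 745, 1026 and 915 in Cre-labelled against 408, 438, 464 and 397 in control libraries, again without overlap, a 2.16-fold difference, or 1.11 ± 0.14 (SE; limma adjusted p = 6.13e-05). The temperature differences of Gbp3 were 0.32 in controls (adjusted p = 0.0614) and 0.12 in Cre-labelled libraries (adjusted p = 0.541). Gbp3 is a gene with a BCL6 peak on its promoter, shown above.

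Gbp7, the neighbour of Gbp3 on chromosome 3 with the highest-scoring member peak on its promoter, was 897, 465, 1084 and 856 in Cre-labelled and 219, 487, 366 and 433 in control libraries at 22 °C. Only Cre-labelled library 2 reached into the control range, and the difference was 1.13 ± 0.26 (SE; limma adjusted p = 0.0101). With only the groups at 22 °C in the fit the adjusted p was 0.0608. At 30 °C Gbp7 was 1195, 1232, 1212 and 779.7 in Cre-labelled against 667, 540.4, 769 and 739.8 in control libraries. The groups did not overlap, with Cre-labelled library 4 close to the controls, and the difference of 0.69 ± 0.26 did not pass (adjusted p = 0.0923). Gbp7 rose with temperature in controls by 0.90 ± 0.26 (SE; limma adjusted p = 0.00956).

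Gbp2 was 1546, 1401, 1288 and 988 in Cre-labelled and 842, 754, 860.2 and 1041 in control libraries at 30 °C. Cre-labelled library 4 fell within the control range, and the difference was 0.57 ± 0.14 (SE; limma adjusted p = 0.0106). At 22 °C it was 1070.4, 928, 1053 and 815 in Cre-labelled against 544, 488, 491 and 524 in control libraries, without overlap, a difference of 0.91 ± 0.14 (SE; limma adjusted p = 3.87e-04). Gbp2 rose with temperature by 0.76 in controls and 0.42 in Cre-labelled libraries. Gbp6 was called with the Cre label at 22 °C with a difference of 0.63 ± 0.18 (SE; limma adjusted p = 0.0389), a call lost with quantile normalisation (0.65, adjusted p = 0.0516), and its difference at 30 °C was 0.42 (adjusted p = 0.163). Gbp5 rose with temperature by 1.00 in controls and 0.68 in Cre-labelled libraries, with genotype differences of 0.38 and 0.70 that did not pass. Gbp4 passed in none as deposited, with differences from 0.34 for genotype at 30 °C to 0.68 for temperature in controls.

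The immunity-related GTPases act with the guanylate binding proteins on pathogen vacuoles in mouse cells. Irgm1, a regulator of this family, rose in all 4 comparisons. Irgm1 was 692, 579, 623 and 547 in Cre-labelled and 486, 457, 467 and 420.1 in control libraries at 30 °C, and 426, 339, 500.1 and 347 in Cre-labelled against 333, 259, 252 and 280.2 in control libraries at 22 °C. Groups did not overlap at either temperature, with differences of 0.41 ± 0.13 (SE; limma adjusted p = 0.0474) and 0.51 ± 0.13 (SE; limma adjusted p = 0.0202). With temperature it rose by 0.71 in controls and 0.61 in Cre-labelled libraries. Iigp1, an effector of the family, was 1399.6, 1511, 1326 and 741 in Cre-labelled against 683, 628, 767 and 701 in control libraries at 30 °C. The lowest Cre-labelled library, library 4, fell within the control range, and the difference was 0.79 ± 0.24 (SE; limma adjusted p = 0.0415). The calls at 30 °C were fragile: Irgm1 missed the threshold under 16 alternatives (adjusted p up to 0.149) and Iigp1 under 14 (up to 0.116), most of them the removal of 1 library. At 22 °C Iigp1 was 783, 337, 827 and 577 in Cre-labelled against 301, 381, 300.0 and 306 in control libraries, overlapping groups that differed by 0.89 ± 0.24 (SE; limma adjusted p = 0.0278), and it rose with temperature by 1.11 in controls and 1.01 in Cre-labelled libraries. Igtp, the third of these genes and one with a BCL6 peak on its promoter, had differences of 0.27 and 0.28 by genotype and 0.56 and 0.54 by temperature in control and Cre-labelled libraries, none past the threshold as deposited.

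The peptide loading genes lie together on chromosome 17. Psmb8 and Psmb9 encode subunits of the immunoproteasome, which cuts proteins into peptides for MHC class I, and Tap1 and Tap2 encode the transporter that brings those peptides into the endoplasmic reticulum. Psmb8 was 986, 899, 939.7 and 769 in Cre-labelled and 437, 523, 529 and 510.0 in control libraries at 30 °C. All Cre-labelled values were above all controls, a 1.79-fold difference, or 0.84 ± 0.20 (SE; limma adjusted p = 0.0105). At 22 °C Psmb8 was 848, 893, 899 and 763 in Cre-labelled against 725, 305, 307 and 418 in control libraries, without overlap although control library 1 came close, a difference of 1.05 ± 0.20 (SE; limma adjusted p = 0.00307). Its temperature differences were 0.28 in controls (adjusted p = 0.266) and 0.07 in Cre-labelled libraries (adjusted p = 0.811). Psmb9 had genotype differences of 0.47 and 0.55, Tap1 of 0.26 and 0.56, and Tap2 of 0.26 and 0.26, none past the threshold. Tap1 rose with temperature in controls by 0.79 ± 0.21 (SE; limma adjusted p = 0.00526). Tap2 had the same small temperature difference in both genotypes, −0.12 in controls and −0.12 in Cre-labelled libraries, which turned to 0.27 and 0.17 with equal totals. The intron 1 peak of Tap2 was centred 3246 bases from the nearer end of Psmb8.

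**Figure D4:**
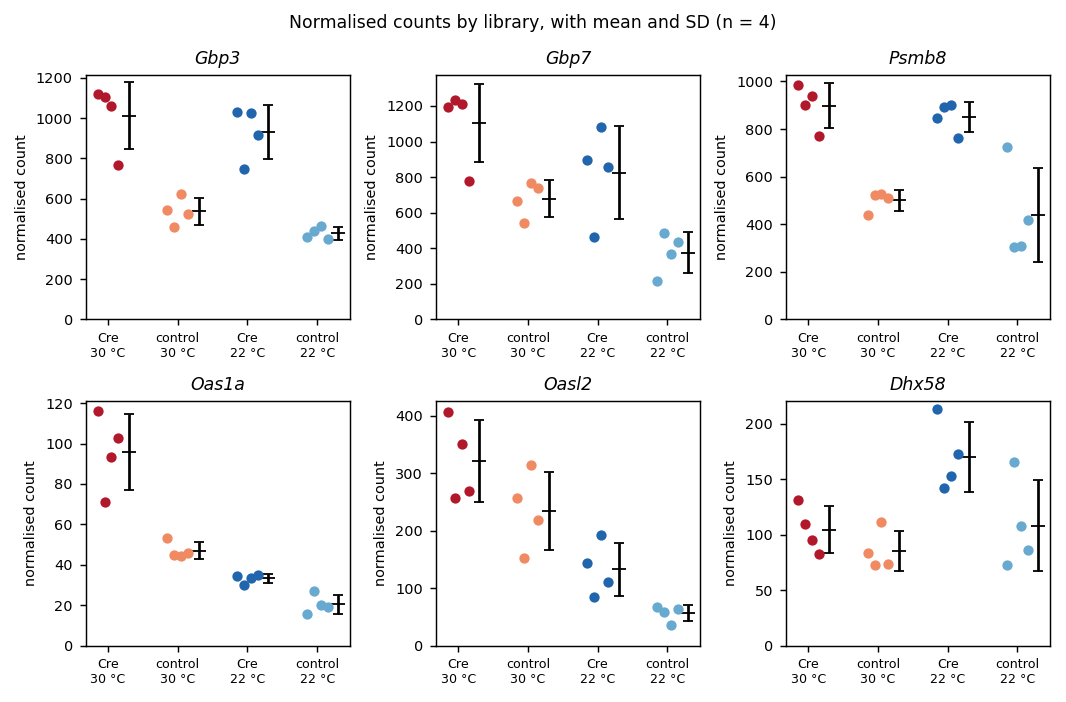
Normalised count per library (points, linear axis from 0) of 6 genes in the 4 groups, with the mean and SD of 4 libraries at the right of each group. Gbp3 and Psmb8 separate by the Cre label at both temperatures, Oas1a by label and temperature, Oasl2 by label at 22 °C, and Dhx58 has its highest mean in Cre-labelled libraries at 22 °C.

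The members can be sorted by the comparisons in which they passed. Gbp3, Psmb8 and Irf1 passed in both genotype comparisons and in neither temperature comparison as deposited. With equal totals all 3 passed with temperature in controls, Gbp3 at 0.72 (adjusted p = 0.00192), Psmb8 at 0.67 (0.00878) and Irf1 at 0.67 (0.00419), and Irf1 also in Cre-labelled libraries (0.61, 0.0109). With quantile normalisation Gbp3 (0.40, adjusted p = 0.0429) and Irf1 (0.39, 0.0375) passed in controls and Irf1 in Cre-labelled libraries (0.44, 0.025), while Psmb8 did not pass in controls (adjusted p = 0.174). Oas1a, Trim30a, Gbp2, Irgm1 and Iigp1 passed in all 4. Ddx58, Ifih1, Zbp1, Stat2, Nlrc5, Ifit2, Oas2, Samd9l, Ifi35, Gbp5 and the 3 genes of the ISG15 system passed in both temperature comparisons and in neither genotype comparison. Tap2, Psmb9, Igtp, Gbp4 and Rsad2 passed in none as deposited. With equal totals 4 of these 5 passed with temperature in controls, Psmb9 at 0.79 (adjusted p = 0.00349), Igtp at 0.95 (0.0068), Gbp4 at 1.07 (0.0198) and Rsad2 at 0.82 (0.0391). Igtp (adjusted p = 0.0205) and Psmb9 (0.0232) then also passed in Cre-labelled libraries, and Psmb9 with genotype at 22 °C. Igtp passed in controls with quantile normalisation too (0.61, 0.0449). Tap2 did not pass in any comparison with either scaling.

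Whether the genotype difference depends on temperature was tested directly with the interaction, the difference at 30 °C minus that at 22 °C. No member passed (limma adjusted p under 0.05), against 0.175% higher and 0.266% lower among all genes, and 5 members had an unadjusted p under 0.05. The share of all genes with an unadjusted p under 0.05 was not computed here either. The median was −0.21 for the members and −0.01 for all genes, with 30 members negative and 13 positive. That median was −0.058, with 20 positive, without Cre-labelled 22 °C library 3, and −0.079, with 18 positive, without Cre-labelled 30 °C library 4. It was −0.070 without control 22 °C library 3, −0.12 without Cre-labelled 22 °C library 1 and −0.13 without control 30 °C library 3. It was −0.36, with 8 positive, without Cre-labelled 22 °C library 2, −0.060 with quantile normalisation and −0.31, with 8 positive, with equal totals. The lowest were Ifit3 at −1.0 ± 0.39 (SE; limma adjusted p = 0.346), Ifit3b at −0.91 ± 0.33 (SE; limma adjusted p = 0.313) and Ifit1 at −0.80 ± 0.28 (SE; limma adjusted p = 0.294). The highest were Mx2 at 0.81 ± 0.75 (SE; limma adjusted p = 0.768), Oas3 at 0.41 ± 0.44 (SE; limma adjusted p = 0.807) and Oas1a at 0.30 ± 0.27 (SE; limma adjusted p = 0.764). The larger number of calls at 22 °C is therefore not shown to be a larger genotype difference for any single member.

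Other genes of the interferon pathway, 114 listed by role, were read beside the members, and 96 of them met the minimum mean. The ligands were near or at 0: Ifng had a mean of 1.29 and at most 4.06 in any library, and Ifnb1 and the 5 type I alpha genes listed were at 0 in all libraries. Of the 96, 13 were higher and 5 lower with the Cre label at 30 °C, 17 and 4 at 22 °C, 55 and 5 with temperature in controls, and 40 and 3 with temperature in Cre-labelled libraries. The median differences were 0.30, 0.34, 0.57 and 0.43. Their shares higher, as those of the members, were read against 5.65%, 5.51%, 22.9% and 15.0% of all genes. The shares lower were read against 6.85%, 4.69%, 22.7% and 17.7%.

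None of the 4 interferon receptor genes passed with genotype. Ifnar1 had differences of −0.0045 and −0.04 with genotype and Ifngr1 of −0.16 and 0.05, none past the threshold. Ifnar2 differed by −0.35 and −0.36 with genotype, short of the threshold, and was lower at 30 °C, with differences of −0.40 ± 0.13 (SE; limma adjusted p = 0.0214) in controls and −0.39 ± 0.13 (SE; limma adjusted p = 0.0344) in Cre-labelled libraries. Ifngr2 differed by 0.04 and −0.03 with genotype, short of the threshold, and rose with temperature by 0.39 and 0.46, and Ifngr1 rose with temperature in controls by 0.48.

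Cxcl9, a chemokine induced by interferon gamma that draws T cells, had the smallest adjusted p of the pathway genes in both genotype comparisons. It was 1140.3 ± 172 in Cre-labelled and 557 ± 81.6 in control libraries at 30 °C, and 1223 ± 188 in Cre-labelled against 379.9 ± 41.9 in control libraries at 22 °C (SD, n = 4 each). The differences were 1.03 ± 0.14 (SE; limma adjusted p = 1.20e-04) and 1.68 ± 0.14 (SE; limma adjusted p = 1.08e-06). Cxcl9 rose with temperature in controls by 0.55 ± 0.14 (SE; limma adjusted p = 0.00437) and differed by −0.10 in Cre-labelled libraries (adjusted p = 0.615). It was also named by a BCL6 peak, in its intron 1, that scored 10.5. Of the 96 pathway genes tested, 9 (9.38%) were named by a peak, against 14.2% of all genes tested. Ifi27l2a, a mitochondrial protein gene of the interferon-induced Ifi27 family, went the other way from Cxcl9 with the Cre label. At 30 °C Ifi27l2a was 1136 ± 497 in Cre-labelled and 6010.0 ± 666 in control libraries, a difference of −2.50 ± 0.39 (SE; limma adjusted p = 4.55e-04). At 22 °C it was also lower, with a difference of −1.77 ± 0.39 (SE; limma adjusted p = 0.00787). Ifitm3, which blocks viral entry, rose with the Cre label at 22 °C by 0.76 ± 0.13 (SE; limma adjusted p = 0.0016), and Lgals9, a galectin, by 0.54 ± 0.10 (SE; limma adjusted p = 0.00314).

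Irf5 and Irf8, transcription factors of myeloid cells, rose with the Cre label at 30 °C by 1.05 ± 0.21 (SE; limma adjusted p = 0.00316) and 1.06 ± 0.22 (SE; limma adjusted p = 0.00413). They rose with temperature by 1.50 and 1.49 in controls and by 1.90 and 1.86 in Cre-labelled libraries. Myd88, the adaptor of most Toll-like receptors, rose with the Cre label at 30 °C by 0.62 ± 0.11 (SE; limma adjusted p = 0.0011) and differed by −0.32 at 22 °C (adjusted p = 0.0661). It was the 1 pathway gene past the threshold for the interaction, 0.94 ± 0.15 (SE; limma adjusted p = 0.00959), and it was lower at 30 °C than at 22 °C in controls, with a difference of −0.81. Tdrd7, an antiviral Tudor domain protein, rose with temperature by 0.66 in controls, and Ifitm3 by 1.11 in controls. Ifi204, a DNA sensor, rose with temperature by 1.12 in Cre-labelled libraries. Ifi27 was lower at 30 °C in Cre-labelled libraries, with a difference of −1.06 ± 0.14 (SE; limma adjusted p = 4.39e-05). Ifi27 was also named by a BCL6 peak, in its intron 1, that scored 7.15.

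By group mean, the macrophage markers stood in the same order of groups as the members. So did the endothelial, dendritic cell, T and NK cell, B cell and neutrophil markers. Some middle groups lay close together, by mean log2 deviation from each gene's own mean. The endothelial markers were at 0.04 in controls at 30 °C and −0.01 in Cre-labelled libraries at 22 °C. The T and NK cell markers were at −0.02 and −0.11. Among the members, the guanylate binding proteins (−0.01 and 0.16) and the peptide loading genes (−0.10 and 0.17) had these groups in the reverse order. The members' mean log2 deviation from each gene's own mean ran from 0.33 to 0.82 over the Cre-labelled libraries at 30 °C, −0.01 to 0.36 in controls at 30 °C, −0.47 to 0.28 in Cre-labelled libraries at 22 °C and −0.83 to −0.58 in controls at 22 °C. For the 18 macrophage markers the ranges were 0.85 to 1.79, 0.11 to 0.42, −0.64 to −0.24 and −1.37 to −0.76. Of these markers 14 were higher and 0 lower with the Cre label at 30 °C, 8 higher and 1 lower at 22 °C, 16 and 0 with temperature in controls, and 17 and 0 with temperature in Cre-labelled libraries. Their summed normalised counts ran from 7191 to 19895 and from 4274 to 5313 in Cre-labelled and control libraries at 30 °C, and from 2662 to 3515 and from 1578 to 2505 at 22 °C. The defining marker Adgre1 rose with the Cre label by 1.07 at 30 °C and 0.91 at 22 °C.

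Endothelial markers, 10 genes, were higher with the Cre label for 3 at 30 °C and 5 at 22 °C, and higher at 30 °C for 6 in controls and 4 in Cre-labelled libraries, with 0 lower. Brown adipocyte markers, 13 genes, were lower for 4 and 2 with the Cre label at 30 and 22 °C and for 10 and 9 with temperature in control and Cre-labelled libraries, with 0 higher. Of 10 T and NK cell markers tested 1 was higher at each temperature with the Cre label, of 5 dendritic cell markers 1 and 0, of 3 B cell markers 0 and 2, and of 2 neutrophil markers 0 and 1. At 30 °C against 22 °C, 3 of the T and NK cell markers were higher in controls and 4 in Cre-labelled libraries. The numbers were 2 and 1 of the dendritic, 2 and 0 of the B cell and 2 and 2 of the neutrophil markers. Of all genes, 5.65% and 5.51% were higher with the Cre label, and 22.9% and 15.0% with temperature. The shares lower were 6.85%, 4.69%, 22.7% and 17.7%. The T and NK cell shares higher were 10.0% and 10.0% with the label, and 30.0% and 40.0% with temperature. Of the 7 neutrophil markers listed, 1 was at 0 in every library of both groups at 30 °C and 3 in both groups at 22 °C. Skeletal muscle markers varied from −5.20 to 2.94 over the Cre-labelled libraries at 30 °C alone. In controls their scores ran from 1.56 to 2.41 at 30 °C and from −3.49 to 0.10 at 22 °C, without overlap, and all 12 had a positive temperature difference there, 5 of them called, with a median of 3.98. The part of these markers in the members' differences was not tested.

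**Figure D5:**
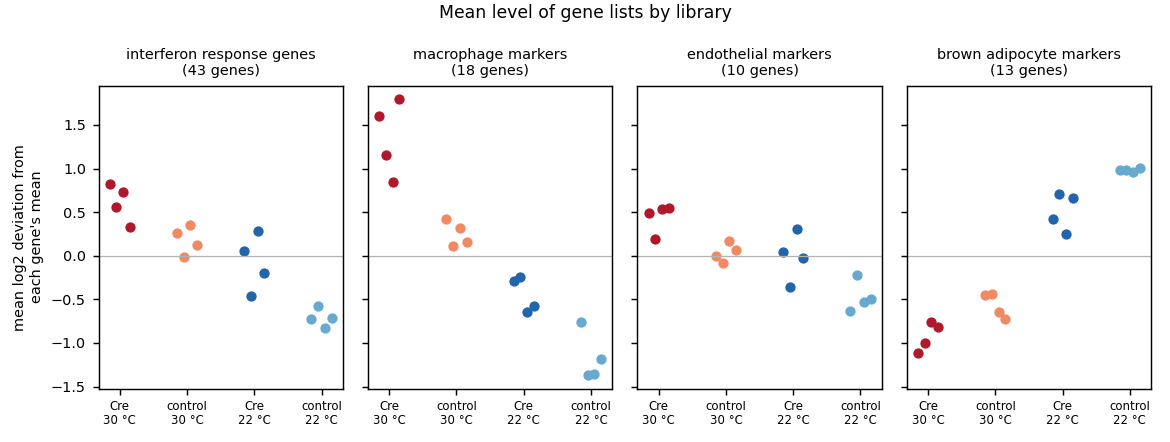
Mean log2 deviation of 4 gene lists from each gene's mean over 16 libraries, per library (points) and group. By group mean, the interferon response genes, the macrophage markers and the endothelial markers are highest in Cre-labelled libraries at 30 °C and lowest in controls at 22 °C. The brown adipocyte markers run the opposite way.

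Among members with a promoter window, those with an ISRE core and those without it had medians that lay close together. The 18 genes with a core had a median of 0.39 for genotype at 30 °C and 0.70 at 22 °C, and the 13 without had 0.40 and 0.56. With temperature the medians were 0.90 and 0.86 in controls and 0.61 and 0.54 in Cre-labelled libraries. Of genes outside the pathway, 350 with a core in their window had medians of 0.04 and 0.04 for genotype at 30 and 22 °C, and 0.09 and 0.08 for temperature in control and Cre-labelled libraries. Of the 7 members named by a BCL6 peak, Gbp3 passed in the genotype comparison at 30 °C, and Gbp3 and Gbp7 in that at 22 °C. Igtp, Tap2, Ifit2, Usp18 and Rsad2 passed in neither. Among all 43 members, 18.6% passed as higher at 30 °C and 46.5% at 22 °C, against 5.65% and 5.51% of all genes. Whether a peak goes with the genotype difference was not tested.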

How the data were processed

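RNA of brown fat was sequenced as stranded polyA libraries with single reads of 75 cycles, per the labels' protocols. The signal values used are gene counts estimated with kallisto and normalised with DESeq2 by the authors, per the submitters' processing notes; they are not whole numbers and raw depth is unknown. Levels are not corrected for gene length, so they were not compared between genes. The deposited BCL6 peak list was annotated with HOMER on mm10, per the file headers, and came from 1 ChIP sample; the peak score and the focus ratio (a fraction) are the authors' values, and neither threshold nor control is given in the sources used here.

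Differences were computed with limma 3.58.1 (R 4.3.3, trend on) on log2(value + 1), for genes averaging 10 or more across 16 libraries, in 1 model of 4 groups of 4 libraries, with Benjamini-Hochberg adjustment over all 13176 genes tested of 24116 and a threshold of 0.05. Fold changes are on that log2(value + 1) scale and understate low genes. The members and all lists were chosen with earlier results of these data known. By rule, up to 12 members past the threshold in order of adjusted p, the 3 highest and the 3 lowest by difference and, of other pathway genes, up to 4 past the threshold were named for each comparison; the remaining members were named because all are part of the set. The fit was tested on simulated data. Libraries of a group correlated at 0.949 or more and no pair held identical values. The labels give no batch. Motifs were searched on both strands with Python 3.11.15. Alternatives were other pseudocounts, filters and scalings, no trend, a replicate block, only the groups compared, and leaving out libraries. A gene that the rule names is not reported here.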

Additional observations from a re-analysis of the deposited data

Results flagged for a closer look

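In 112 sets of 4 libraries (28 genes in 4 groups), 7 had 1 library set apart from the other 3, by a gap of more than 0.829 of the group's range; chance flags about 1 in 20 such sets. Cre-labelled 30 °C library 4 was low for Gbp3, at 767 against 1058 to 1118 in the other libraries of its group (0.829 of the range), and for Gbp7, at 780 against 1195 to 1232 (0.919). Cre-labelled 22 °C library 3 was high for Rtp4, at 147 against 107 to 109.8 (0.924), for Irf7, at 341 against 226 to 244 (0.837), and for Ifi35, at 399 against 294 to 302 (0.924). Control 30 °C library 3 was high for Rtp4, at 196 against 129.7 to 138 (0.881). Control 22 °C library 2 was high for Iigp1, at 381 against 300.0 to 306 (0.923).

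Myd88 differed between temperatures in its genotype difference, which was larger at 30 °C than at 22 °C by 0.94 on the log2 scale (limma interaction, adjusted p = 0.00959).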

How the results depend on the processing

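Over up to 26 alternatives the named genes gave 1648 values, of which 1558 stayed on their side of the threshold with the same sign, 55 lost the call, 7 gained one and 28 changed sign. Members called higher with genotype at 30 °C were 8 as reported, 17 without the 2 sparsest libraries and 17 with only the groups compared, and 4 to 14 when 1 library was left out. At 22 °C they were 20 as reported, 13 with quantile normalisation, 8 with only the groups compared, and 10 to 28 with 1 library left out. With temperature the counts higher were 26 to 35 in controls and 18 to 33 in Cre-labelled libraries with 1 library left out. The count lower was 1 (Dhx58) in controls with quantile normalisation, and in Cre-labelled libraries it was 0 with equal totals and 0 to 1 with 1 library left out. The cause of these moves was not tested. With the replicate number as a block the counts higher were 8, 18, 30 and 28, with 1 lower. Of 24 correlations between the deviations of same-numbered libraries, 6 were over 0.1, and they ran from −0.48 to 0.24. Libraries with different numbers were not compared, so whether the numbers pair the samples is not settled. The members' median relative to all genes with quantile normalisation was 0.57 for genotype at 22 °C and 0.78 for temperature in controls.

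The sign changes were these, in genes that had not passed as reported. With equal totals, genotype at 30 °C gave 0.020 for Xaf1 and 0.037 for Ifit3, and temperature gave 0.098 for Dhx58 and 0.27 for Tap2 in controls and 0.17 for Tap2 in Cre-labelled libraries. With quantile normalisation, Ifit3b gave −0.0037 at 30 °C, Oas3 −0.28 and Mx2 −0.10 with genotype at 22 °C, and Tap2 0.059 and 0.0026 with temperature in control and Cre-labelled libraries. Without the 2 sparsest libraries Oas3 gave −0.16 at 22 °C. With 1 library left out, genotype at 30 °C gave −0.14 to 0.047 for Xaf1, −0.17 to 0.18 for Ifit3 and −0.15 to 0.14 for Ifit3b, and genotype at 22 °C gave −0.16 to 0.32 for Oas3 and −0.36 to 0.84 for Mx2.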
